A study of Mus musculus with 15 samples.

Results

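Genes of the calcium-activated potassium channels of the BK and SK types and of the hyperpolarization-activated HCN channels were followed through the first postnatal weeks of mouse Purkinje cells (PCs). The 9 genes Kcnma1, Kcnmb2, Kcnmb4, Kcnn1, Kcnn2, Kcnn3, Hcn2, Hcn3 and Hcn4 were chosen by symbol, through the GENCODE M21 names of the Ensembl genes counted, and are 9 of 38561 genes in the data. RNA came from PCs cut out of the cerebellum by laser capture microdissection at 5 ages from birth (P0) over P4, P8 and P14 to P21 (days after birth), and each age is represented by 3 biological replicates, so that there are 15 samples. All animals were male mice of 1 strain, spelled C56/BL6 in the sample labels and C57/BL6 in the study's methods, and neither source names a mutation, transgene or treatment. Individual PC soma were collected at P4 to P21. The P0 samples were cut out as groups of neighbouring PCs, so age and way of capture cannot be told apart at P0.

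PCs are the output neurons of the cerebellar cortex and fire without synaptic drive. BK channels open when depolarization and calcium entry coincide and repolarize the spike, SK channels open through calcium bound to calmodulin and set the pause after it, and HCN channels open on hyperpolarization and carry an inward current that opposes it. Loss of BK or SK current is known to make PC firing irregular. HCN channels are tuned by cyclic AMP.

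With postnatal day as a number, 3 of the 9 genes rose between P0 and P21 and 2 fell. Kcnma1 and Kcnmb4, which encode the BK pore and a neuronal BK auxiliary subunit, and Hcn2 rose, while Kcnn3 and Hcn3 fell. Slopes were tested by quasi-likelihood in edgeR on all 14293 genes that passed a filter on low counts, and a gene was called at a Benjamini-Hochberg adjusted p below 0.05. Of all genes tested, 12% rose and 14.5% fell with day (1712 and 2079 genes, or 1232 and 2866 when total counts were used without normalization factors). With the time point as a factor, which finds any pattern over the 5 ages, Kcnma1 and Kcnmb4 passed, against 19.3% of all genes. All 9 genes passed the filter. Kcnmb2 did so only through its 3 P0 samples, Kcnn3 only through samples of P0 and P4 and Hcn2 only through samples of P8 to P21, so that none of these could have been tested had it been low at those ages. P0 replicate 3 was the highest of the P0 samples for 6 of the 9 genes (Kcnmb2, Kcnmb4, Kcnn1, Kcnn2, Kcnn3 and Hcn4). The share over all genes was not counted, so this does not set the sample apart. Folds and ratios are also given without a sample where leaving it out moved them by over 1.5 times. This alternative was chosen after seeing the data.

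The libraries held between 3409371 and 7814951 counts on genes. Between 18.2% and 31.0% of all tallied reads fell in the 5 tallies not assigned to a gene, with the highest shares at P0. Replicates were separate samples, and their counts differed by far more than sampling noise. The summed level of 6 PC marker genes, all of which rose, went from between 4629 and 6179 CPM (counts relative to library size) at P0 to between 36770 and 46129 at P21, and the PC markers Calb1 and Pcp2 were counted in every sample. The sum of 8 markers of Bergmann glia and astrocytes, of which 4 rose and 1 fell, was highest at P8 (mean 9026 CPM) and was 4732 at P0 and 4075 at P21. That of 6 oligodendrocyte lineage markers, all of which rose, went from between 14.3 and 60.4 CPM at P0 to between 624 and 1282 at P21, although the myelin gene Mog was at 0 in 6 samples. Of 3 granule neuron markers 1 rose, none of the 3 markers of Golgi, basket and stellate cells that could be tested or of 4 microglia markers passed the test, and 1 of 3 vascular markers fell. The part of these cells in the values below was not tested, and in bulk samples fewer cells of a type and less RNA per cell cannot be told apart.

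Sequences around the transcription start are shown for the 3 genes that rose and for Kcnn3, since the former had 72.3% GC or more and the latter less, a choice made after the values were seen. The windows span 250 bases before to 50 bases after a RefSeq start on GRCm38.p6. They lie at chr14:24004156-24004455 (minus strand) for Kcnma1, chr10:116473474-116473773 (minus strand) for Kcnmb4, chr10:79716384-79716683 (plus strand) for Hcn2 and chr3:89519914-89520213 (plus strand) for Kcnn3. Each is written 5′ to 3′ on the strand of its gene, with every GC box (GGGCGG, or CCGCCC on the other strand, overlaps counted) in capitals.
Kcnma1: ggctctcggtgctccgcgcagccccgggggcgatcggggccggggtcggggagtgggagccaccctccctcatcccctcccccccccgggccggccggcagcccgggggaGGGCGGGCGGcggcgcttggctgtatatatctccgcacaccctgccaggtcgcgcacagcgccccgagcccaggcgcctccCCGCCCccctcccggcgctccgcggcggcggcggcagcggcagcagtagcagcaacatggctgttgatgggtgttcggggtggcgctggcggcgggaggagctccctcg
Kcnmb4: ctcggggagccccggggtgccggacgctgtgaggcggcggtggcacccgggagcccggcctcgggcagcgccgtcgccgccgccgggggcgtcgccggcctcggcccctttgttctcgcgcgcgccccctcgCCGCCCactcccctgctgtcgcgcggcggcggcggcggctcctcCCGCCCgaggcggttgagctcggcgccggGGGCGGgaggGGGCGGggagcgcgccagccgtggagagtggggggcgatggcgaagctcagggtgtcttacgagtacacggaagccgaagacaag
Hcn2: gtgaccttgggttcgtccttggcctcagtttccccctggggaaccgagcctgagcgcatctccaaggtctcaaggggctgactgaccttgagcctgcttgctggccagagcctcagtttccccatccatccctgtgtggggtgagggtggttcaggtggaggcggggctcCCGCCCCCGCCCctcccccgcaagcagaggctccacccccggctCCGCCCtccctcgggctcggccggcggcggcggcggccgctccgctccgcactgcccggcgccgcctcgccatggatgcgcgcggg
Kcnn3: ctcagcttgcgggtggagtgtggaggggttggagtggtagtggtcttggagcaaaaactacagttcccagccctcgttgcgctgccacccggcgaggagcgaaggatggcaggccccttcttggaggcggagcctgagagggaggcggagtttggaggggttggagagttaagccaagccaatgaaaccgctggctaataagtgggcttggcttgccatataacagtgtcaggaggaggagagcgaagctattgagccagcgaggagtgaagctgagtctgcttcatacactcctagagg

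The Kcnma1 window held 3 GC boxes, of which a pair overlapped, 36 CpG dinucleotides and 78.0% GC. For Kcnmb4 there were 4 GC boxes, 48 CpG and 79.0% GC, and for Hcn2 there were 3 GC boxes, 26 CpG and 72.3% GC. The Kcnn3 window held no GC box, 11 CpG and 57.7% GC, and 1 CCAAT motif (searched as CCAAT or ATTGG). Among 32851 windows of this length the median was 52.7% GC and 7 CpG, and the GC box was found in 35.7% and CCAAT in 37.4%. TATAAA or its reverse TTTATA, present in 13.6% of windows, was in none of the 4. RefSeq windows were described for 7 of the 9 genes. None was matched for Hcn3, and windows of these genes on chromosome 18, where Kcnn2 lies, were left out. Hcn4, which did not pass the slope test, also had a GC-rich window (71.7% GC, 2 GC boxes), and the Kcnmb2 window held 47.7% GC and no GC box. Of the windows at both Kcnn1 starts, that with 64.3% GC held 2 GC boxes and a CCAAT motif and that with 62.3% GC held neither. These counts describe the letters in the windows alone.

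Kcnma1 (ENSMUSG00000063142, chr14:23289431-24014491, minus strand, GRCm38) encodes the pore-forming subunit of the BK channel. Its levels, in CPM scaled with TMM library sizes, were 142, 86.1 and 109 at P0, 265, 254 and 350 at P4, and 433, 389 and 471 at P8. They were 700, 508 and 691 at P14 and 915, 1024 and 1078 at P21. The lowest sample of each age was above the highest sample of the age before, so that none of the 5 groups overlapped. The mean rose from 113 ± 28.3 CPM (SD, n = 3) at P0 to 1006 ± 83.5 at P21, which is 8.93-fold, and 3.47-fold from P4. The slope was 0.13 log2 units per day (SE 0.014, edgeR adjusted p = 9.46e-07), and the adjusted p of the time point test was 2.56e-07.

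**Figure D1:**
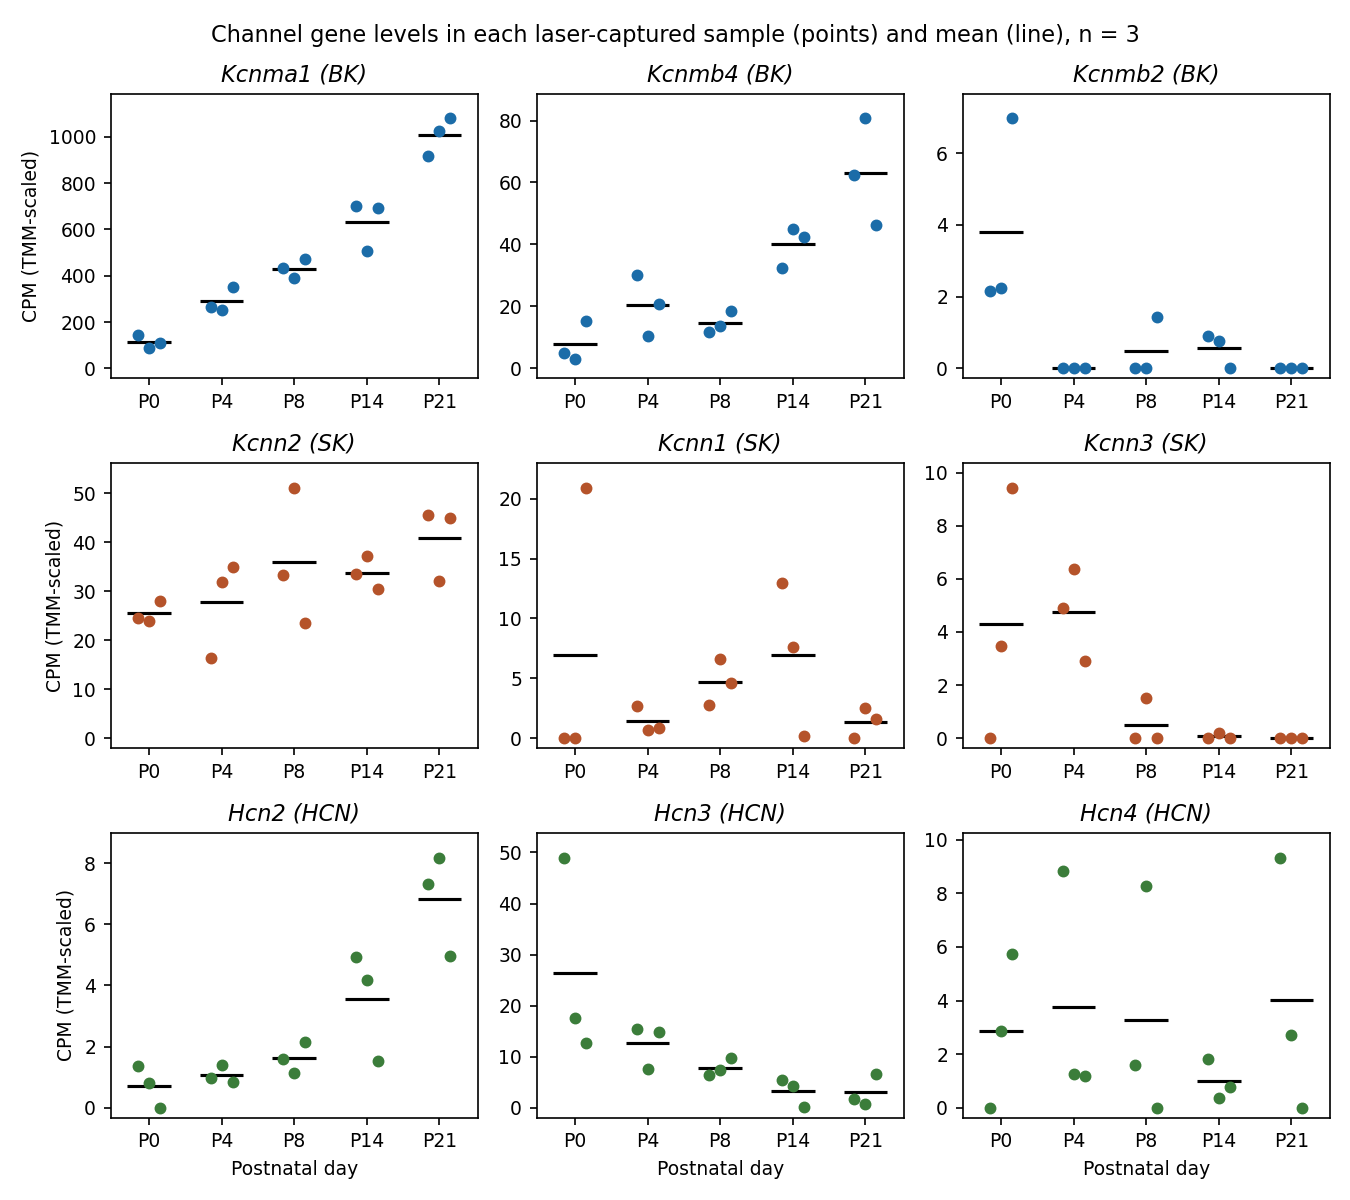
Level of each of the 9 genes (CPM with TMM library sizes, linear axis from 0, different for each gene) in each of the 15 samples by postnatal age, with points for samples and a line for the mean of 3. The samples of Kcnma1 at the 5 ages do not overlap, Kcnmb4 and Hcn2 are highest at P21, Kcnn3 is counted mainly at P0 and P4, and Hcn3 is highest at P0.

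Of the 4 steps between neighbouring ages, that from P0 to P4 passed the test for Kcnma1 alone among the 9 genes, against 1.85% of all genes. Kcnma1 rose 2.57-fold in it (log2 1.36, SE 0.20, edgeR adjusted p = 0.00240). The later steps of Kcnma1 were 0.57 from P4 to P8 (adjusted p = 0.239), 0.56 from P8 to P14 (0.191) and 0.67 from P14 to P21 (0.326) on the log2 scale, each with an SE of 0.20. These steps together carried it 3.47-fold further, although none passed alone. None of the 9 genes passed edgeR's test in the steps from P4 to P8, P8 to P14 and P14 to P21, in which 1.12%, 2.70% and 0.322% of all genes passed. At an unadjusted p below 0.05 there were 1, 2 and 1 of the 9 genes, against 1692, 1907 and 1004 of the 14293 genes tested. DESeq2 and limma-voom called 0, 0 and 1 each, and the gene called was Kcnma1. Over all genes, DESeq2 called 50 as higher and 125 as lower from P14 to P21, and limma-voom 42 and 11.

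Kcnmb4 (ENSMUSG00000054934, chr10:116417861-116473878, minus strand) encodes the BK beta4 subunit, which slows the gating of the channel in neurons. Its CPM values were 4.89, 3.06 and 15.4 at P0, 30.1, 10.5 and 20.6 at P4, and 11.8, 13.7 and 18.6 at P8. At P14 they were 32.3, 45.1 and 42.6, and at P21 62.6, 80.7 and 46.3. All P14 samples lay above all earlier ones and all P21 samples above all P14 ones, whereas P4 and P8 overlapped. The mean rose 8.13-fold from P0 (7.77 ± 6.63 CPM) to P21 (63.2 ± 17.2 CPM), or 15.9-fold without P0 replicate 3, with a slope of 0.13 log2 units per day (SE 0.024, edgeR adjusted p = 0.000502). In the time point test its adjusted p was 0.00597. The step from P0 to P4 was 1.39 on the log2 scale and did not pass (adjusted p = 0.259). It was larger without P0 replicate 3, at 2.35, and then passed (adjusted p = 0.0453). Of its exon bases 31.5% are shared with the antisense genes Kcnmb4os1 and Kcnmb4os2 on the other strand, which held 0 to 11 and 0 to 40 counts per sample, and the strand setting of the counting is not stated.

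Kcnmb2 (ENSMUSG00000037610, chr3:31902507-32200180, plus strand) encodes the beta2 subunit, which makes BK channels inactivate. It was counted in all 3 P0 samples, at 2.15, 2.25 and 6.96 CPM, and was at 0 in every sample of P4 and P21. In between it was at 0, 0 and 1.43 CPM at P8 and at 0.914, 0.761 and 0 at P14. Against 3 counts over the libraries of a group, the P4 mean was at least 22.4-fold lower than that of P0, and the P21 mean at least 17.7-fold lower. These bounds were 13.0 and 10.3 without P0 replicate 3, the first was 12.5 without P4 replicate 2, and the second was 11.7 without P21 replicate 2 and 9.82 without P21 replicate 3. The slope of -0.23 log2 units per day (SE 0.093) did not pass (edgeR adjusted p = 0.0817), nor did the time point test (0.103) or the step from P0 to P4 (0.194). The difference rests on low counts, 11 to 34 per P0 sample, at the age at which clusters were captured.

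The ratio of the auxiliary subunit to the pore was taken per length, in RPKM, which divides counts by the summed exon length and by the total counts on genes. Kcnmb4 stood at 0.359 ± 0.312 of the Kcnma1 RPKM at P0 (SD, n = 3), 0.364 ± 0.193 at P4 and 0.174 ± 0.0317 at P8. It stood at 0.335 ± 0.110 at P14 and 0.324 ± 0.0942 by P21. Without P0 replicate 3, the P0 mean was 0.178, close to that of P8. Of the exon bases of Kcnmb4 31.5% are shared with genes on the other strand, against 5.98% for Kcnma1. What this does to the ratio was not tested. The samples of all 5 ages overlapped in this ratio apart from P8, where the highest, 0.201, was below the lowest of every age but P0. Kcnmb2 stood at 0.190 ± 0.139 of Kcnma1 at P0 (0.112 without P0 replicate 3) and at means of 0.00549 or less from P4 on. Other BK partners were scarce. Kcnmb1, Kcnmb3, Lrrc38 and Lrrc52 were at 0 in every sample, Lrrc26 held 0 to 20 counts, and Lrrc55, a gamma subunit, was the 1 of these 6 genes that could be tested (slope -0.09, SE 0.090, adjusted p = 0.508). Of the relatives of Kcnma1 in the Slo family, none of the 3 passed edgeR's slope test, or those of DESeq2 and limma-voom. In edgeR 2 of them had an unadjusted p below 0.05, as had 5298 of the 14293 genes tested. The sodium-activated channel gene Kcnt1 had a slope of 0.03 (adjusted p = 0.585), and Kcnt2 and Kcnu1 had slopes of -0.27 each (0.0750 and 0.0603).

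Kcnn2 (ENSMUSG00000054477, chr18:45268860-45686024, plus strand) encodes SK2, known as the main SK subunit of PCs. Its levels were 24.5, 23.9 and 28.1 CPM at P0, 16.4, 31.9 and 34.9 at P4, and 33.3, 51.0 and 23.6 at P8. At P14 they were 33.4, 37.1 and 30.3, and at P21 45.6, 32.1 and 45.0. The samples overlapped between all neighbouring ages, while those of P21 lay above those of P0. The means of 25.5 ± 2.26 CPM at P0 and 40.9 ± 7.66 at P21 differed 1.61-fold, and the slope of 0.03 log2 units per day (SE 0.016) did not pass (edgeR adjusted p = 0.180; time point test 0.656). Kcnn2 was counted in all 15 samples, at 67 to 282 counts. Of its exon bases, 8.13% are shared with genes on the other strand.

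Kcnn3 (ENSMUSG00000000794, chr3:89520164-89675132, plus strand), the SK3 gene, was counted mainly in the first days. It stood at 0, 3.47 and 9.42 CPM at P0 and at 4.90, 6.38 and 2.92 at P4. At P8 it was at 0, 1.51 and 0 CPM, at P14 at 0, 0.190 and 0, and at P21 at 0 in every sample. All P4 samples lay above all samples of P8 to P21, whereas P0 replicate 1 was at 0 like most of the later samples. The P21 mean was at least 20.1-fold lower than that of P0 and at least 22.2-fold lower than that of P4, against 3 counts over the 3 libraries. The bound against P0 was 8.12 without P0 replicate 3, 13.3 without P21 replicate 2 and 11.1 without P21 replicate 3, and that against P4 was 14.6 and 12.3 without the latter samples in turn. Its slope was -0.43 log2 units per day (SE 0.10, edgeR adjusted p = 0.00369). The fall lost its call with time as log2(day + 1) (adjusted p = 0.0523), and the time point test did not pass (0.0957).

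Kcnn1 (ENSMUSG00000002908, chr8:70842049-70863258, minus strand), the SK1 gene, varied widely between replicates. It was at 0, 0 and 20.9 CPM at P0, with 102 counts in replicate 3 alone, and at 2.70, 0.638 and 0.859 at P4. It reached 2.79, 6.59 and 4.64 CPM at P8, 13.0, 7.61 and 0.191 at P14, and 0, 2.51 and 1.60 at P21. The P8 samples lay above those of P4 and P21, and both P0 and P14 overlapped with every other age. No test passed for Kcnn1 (slope -0.05, SE 0.085, edgeR adjusted p = 0.742; time point test 0.762).

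**Figure D2:**
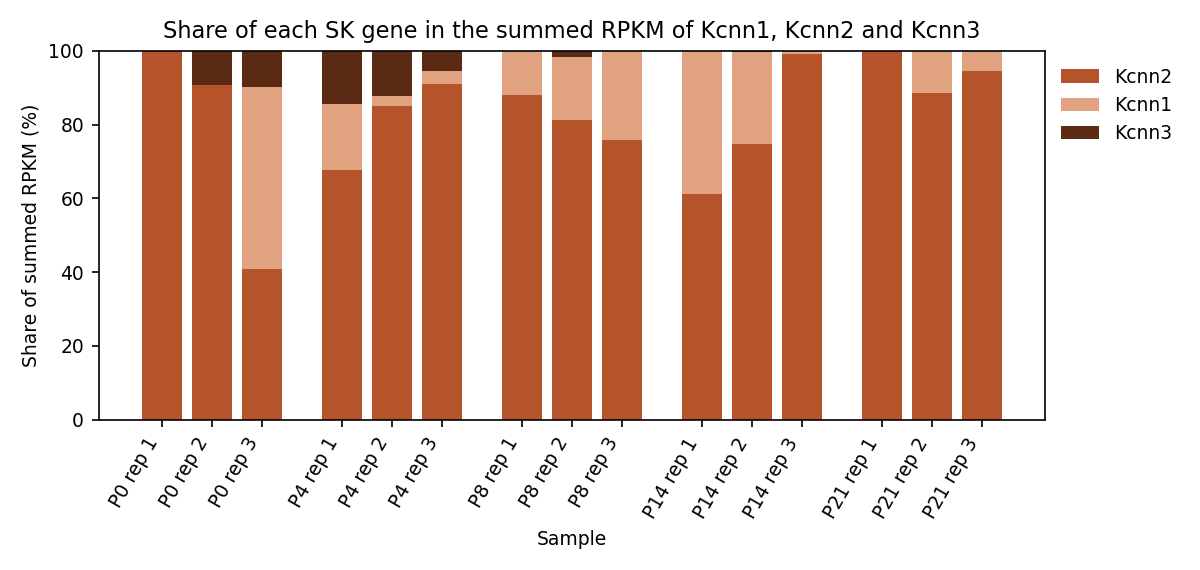
Share of Kcnn2, Kcnn1 and Kcnn3 in the summed RPKM of the SK genes (percent, stacked bars from 0 to 100) in each of the 15 samples, 3 per age. Kcnn2 holds most of each bar except in P0 replicate 3, where Kcnn1 holds 49.4%, and Kcnn3 is visible at P0, P4 and in 1 P8 sample.

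Per length, Kcnn2 made up 77.1 ± 31.8% of the summed SK RPKM at P0 (SD, n = 3, from 40.8% to 100%), 81.2 ± 12.2% at P4 and 81.6 ± 6.15% at P8. Its share was 78.3 ± 19.1% at P14 and 94.4 ± 5.66% at P21. These shares overlapped between all neighbouring ages. Kcnn3 held 6.40 ± 5.54% at P0 and 10.7 ± 4.67% at P4, and at most 1.71% in any later sample. The summed SK RPKM had means between 4.69 at P4 and 6.17 at P8. The P0 mean was 5.88, and 3.71 without replicate 3, in which Kcnn1 was counted. Set against it, Kcnma1 went from 1.57 ± 0.939 RPKM for each SK RPKM at P0 to 3.93 ± 0.914 at P4 and 4.80 ± 1.97 at P8. It went on to 6.69 ± 2.86 at P14 and 10.4 ± 1.86 at P21. The lowest P21 ratio (8.82) was above every sample of P0 to P8 but below the highest of P14 (9.92). The SK relative Kcnn4 was at 0 in every sample.

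The 7 reported partner genes of SK channels encode calmodulin and the kinase and phosphatase subunits held on the channel. None of them fell, against 14.5% of all genes, and 1 rose with day, against 12% of all genes. This was the calmodulin gene Calm2 (slope 0.07, SE 0.0069, edgeR adjusted p = 1.28e-06), which went from 2468 ± 241 CPM at P0 to 6787 ± 634 at P21. Calm3, another calmodulin gene, did not pass (slope 0.01, SE 0.0081, adjusted p = 0.269). Ppp2ca, a catalytic subunit of protein phosphatase 2A, passed the time point test alone (adjusted p = 0.0180), with means of 205 CPM at P0, 360 at P8 and 301 at P21. The median slope of the 7 genes was 0.02, against -0.01 over all genes tested.

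Hcn2 (ENSMUSG00000020331, chr10:79716634-79736108, plus strand) encodes a channel subunit with a strong response to cyclic AMP. Its levels were low at first, at 1.37, 0.816 and 0 CPM at P0, 0.980, 1.40 and 0.859 at P4 and 1.60, 1.13 and 2.14 at P8. They reached 4.93, 4.19 and 1.53 CPM at P14 and 7.32, 8.17 and 4.95 at P21. The P21 samples lay above all others, though only just above the highest P14 sample, and P0, P4 and P8 overlapped. The mean rose 9.35-fold from P0 (0.729 ± 0.689 CPM) and 6.30-fold from P4 to P21 (6.81 ± 1.67 CPM), and the rise from P0 was 16.7-fold without P0 replicate 1. The slope was 0.16 log2 units per day (SE 0.048, edgeR adjusted p = 0.0207). Without P21 replicate 2 it was 0.15, and the call was lost (adjusted p = 0.0594). The time point test did not pass (0.276), and no sample held more than 39 counts.

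Hcn3 (ENSMUSG00000028051, chr3:89146074-89160196, minus strand), whose channel responds little to cyclic AMP, ran the opposite way. It stood at 48.9, 17.6 and 12.7 CPM at P0, 15.4, 7.66 and 14.8 at P4, and 6.39, 7.34 and 9.81 at P8. The values were 5.48, 4.19 and 0.191 CPM at P14 and 1.66, 0.838 and 6.70 at P21. All P21 samples lay below all samples of P0 and P4, P14 and P21 overlapped, and P0 replicate 1 was far above the other P0 samples. The P21 mean of 3.07 ± 3.18 CPM was 8.60-fold lower than that of P0 (26.4 ± 19.7 CPM) and 4.11-fold lower than that of P4. Against P0 it was 4.93-fold lower without P0 replicate 1 and 21.1-fold without P21 replicate 3, and against P4 10.1-fold without P21 replicate 3. Its slope was -0.15 log2 units per day (SE 0.039, edgeR adjusted p = 0.00802). Without the P0 samples the slope was -0.12 and no longer passed (adjusted p = 0.132), and the time point test over all ages gave 0.108. Of the exon bases of Hcn3, 17.1% are shared with Pklr on the other strand. Pklr was at 0 in every sample, which does not show whether reads on these bases were counted for Hcn3.

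Hcn4 (ENSMUSG00000032338, chr9:58823412-58863175, plus strand), known for the pacemaker current of the heart, was low and uneven. It was at 0, 2.86 and 5.73 CPM at P0, 8.82, 1.28 and 1.2 at P4 and 1.60, 8.28 and 0 at P8. Later it was at 1.83, 0.381 and 0.763 CPM at P14 and at 9.32, 2.72 and 0 at P21. A single sample stood above 8 CPM at each of P4, P8 and P21, and all ages overlapped with their neighbours. Its slope was 0.00 (SE 0.072, edgeR adjusted p = 0.988; time point test 0.945).

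**Figure D3:**
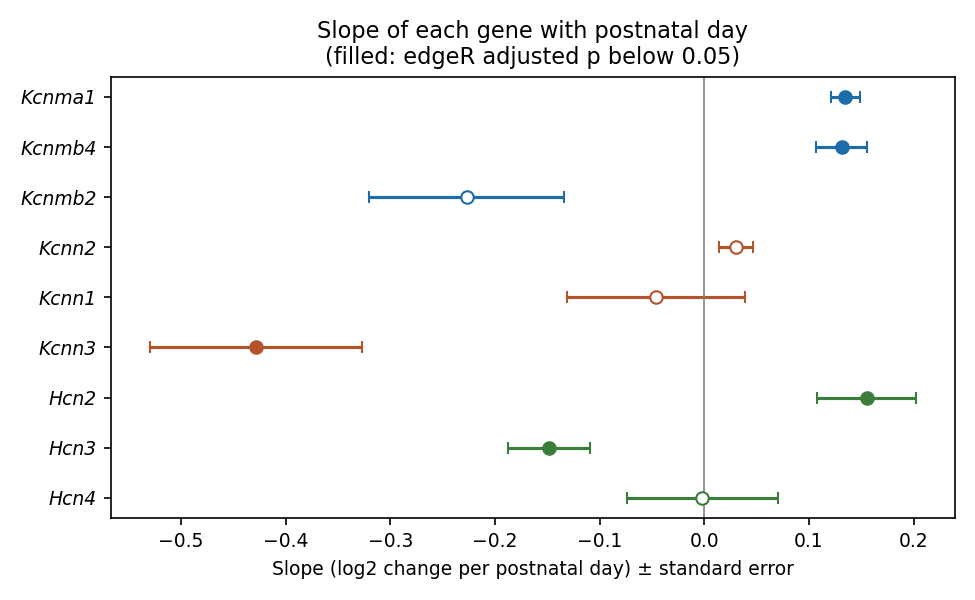
Slope of each of the 9 genes with postnatal day (log2 units per day, horizontal axis) from edgeR over 15 samples, with a standard error derived from its F statistic, and filled points for an adjusted p below 0.05. Kcnma1 (0.13), Kcnmb4 (0.13) and Hcn2 (0.16) are filled on the right, and Hcn3 (-0.15) and Kcnn3 (-0.43) on the left.

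The levels of the 9 genes can be ordered per length, and Kcnma1 had the highest mean at each age. At P0 its 7.27 ± 1.81 RPKM were followed by 6.95 ± 5.14 for Hcn3, 3.74 ± 0.366 for Kcnn2 and 2.58 ± 2.22 for Kcnmb4. These neighbours overlapped. At P21 Kcnma1 stood at 52.0 ± 4.67 RPKM, Kcnmb4 at 16.6 ± 4.20, Kcnn2 at 4.82 ± 0.980 and Hcn2 at 1.87 ± 0.427, and no samples of these 4 genes overlapped. Below them came Hcn3 (0.657 ± 0.687), Hcn4 (0.575 ± 0.692) and Kcnn1 (0.261 ± 0.239), which overlapped with each other, and Kcnmb2 and Kcnn3 at 0. The highest Hcn3 sample (1.44) lay above the lowest of Hcn2 (1.38). The place of Hcn3 thus went from the second to the fifth, and Hcn2 passed it by P14, where the means were 1.04 ± 0.521 and 0.743 ± 0.619 RPKM and the samples overlapped. Exon lengths sum all annotated exons, so a gene that uses few of its exons in PCs reads low, and Kcnma1 is the longest here (16976 bases). They include bases shared with genes on the other strand (31.5% for Kcnmb4, 17.1% for Hcn3), whose part in the order was not tested.

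**Figure D4:**
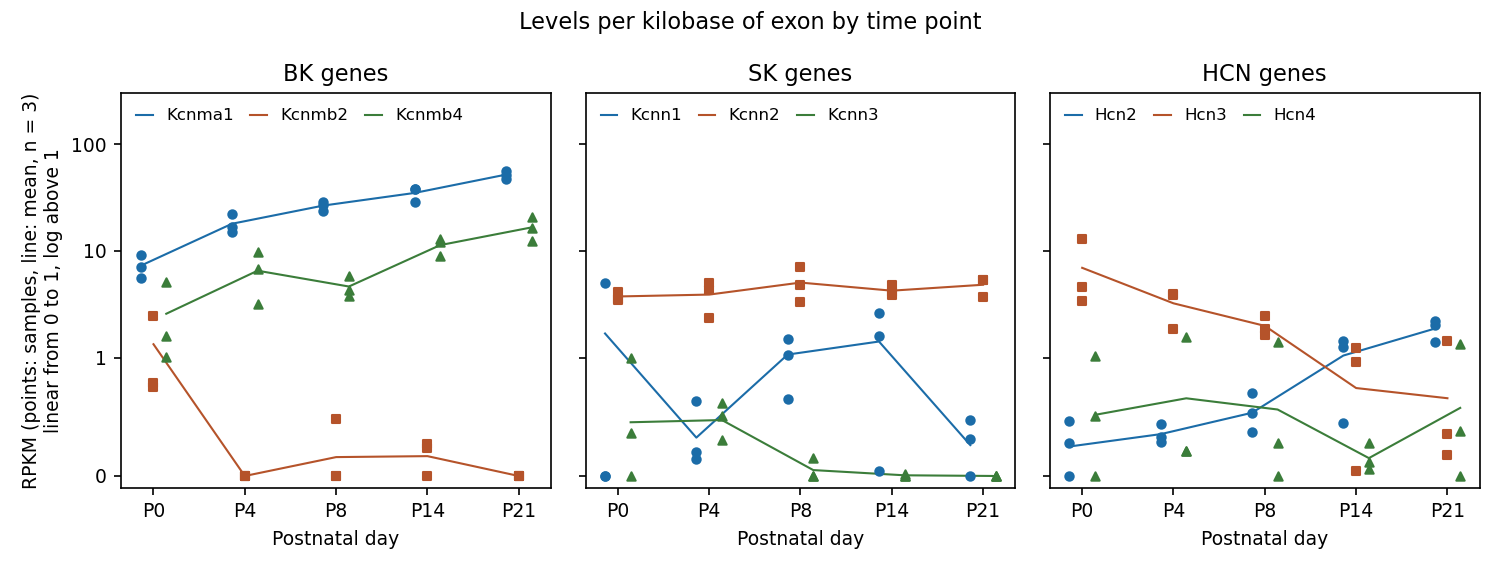
Level per kilobase of exon (RPKM, linear from 0 to 1 and logarithmic above) of the BK, SK and HCN genes by postnatal age, with points for samples and lines for means of 3. Kcnma1 is the top line at each age and reaches 52.0, Kcnn2 stays between means of 3.74 and 5.05, and the lines of Hcn2 and Hcn3 cross between P8 and P14.

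Genes with a time course most like that of a channel gene were sought for Kcnma1 and Kcnmb4, which passed the time point test, among 9307 protein-coding genes with a mean of at least 10 CPM. By Pearson correlation of log2 CPM over the 15 samples, Kcnma1 was closest to Kcng4, a modifier subunit of voltage-gated potassium channels (r = 0.984), Clstn3, which encodes a synaptic adhesion protein (0.984), and the sodium channel gene Scn1a (0.980). For Kcnmb4 these were Lysmd2 (0.940), the diacylglycerol kinase gene Dgkg (0.924) and Dpp10 (0.921), a partner of Kv4 channels. As many as 223 genes were above 0.9 for Kcnma1 and 17 for Kcnmb4. The samples fall into 5 ages that share the trend with day, and the values describe likeness alone.

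Channels and stores that supply calcium to BK and SK channels were followed as a list of 11 genes. Of these 4 rose, 3 fell and 4 did not pass, while 12% of all genes rose and 14.5% fell. Cacna1a, the P/Q-type calcium channel gene of mature PCs, rose (slope 0.13, SE 0.017, edgeR adjusted p = 7.32e-06), from 28.4 ± 12.5 CPM at P0 to 196 ± 71.7 at P21. The T-type channel gene Cacna1g (0.18) and the store release genes Itpr1 (0.21) and Ryr1 (0.24) also rose. Itpr1 is also among the 6 PC markers. The N-type gene Cacna1b fell (slope -0.20, SE 0.030, adjusted p = 7.53e-05), from 127 ± 15.1 to 7.81 ± 8.89 CPM, as did Cacna1h (-0.26) and Ryr3 (-0.48). Cacna1h went from 8.43 ± 3.59 CPM at P0 to 0.349 ± 0.605 at P21, and Ryr3 from 9.61 ± 8.64 to 0. Both passed the filter only through ages before P14, and Ryr3 did not pass edgeR's time point test (adjusted p = 0.109). The median slope of the list was 0.02. An unadjusted p below 0.05 was found for 8 of the 11 genes, and for 5298 of the 14293 genes tested.

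On the side of HCN channels, 4 of 6 reported partner genes could be tested. None of them rose, against 12% of all genes, and 2 fell, against 14.5%. These were Nedd4l, a ubiquitin ligase (slope -0.10, SE 0.020, edgeR adjusted p = 0.000866), and the actin crosslinker gene Flna (-0.11, SE 0.029, adjusted p = 0.00820). Pex5l, the gene of the HCN accessory protein TRIP8b, had a slope of 0.24 (SE 0.12) that did not pass (adjusted p = 0.132), and Kctd3 one of -0.01 (0.824). Of 7 adenylyl cyclase genes tested, whose enzymes make cyclic AMP, none rose and 1 fell, near the 14.5% of all genes that fell. This was Adcy5 (slope -0.23, SE 0.038, adjusted p = 0.000190), which went from 71.9 ± 34.5 CPM at P0 to 3.59 ± 3.12 at P21.

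**Figure D5:**
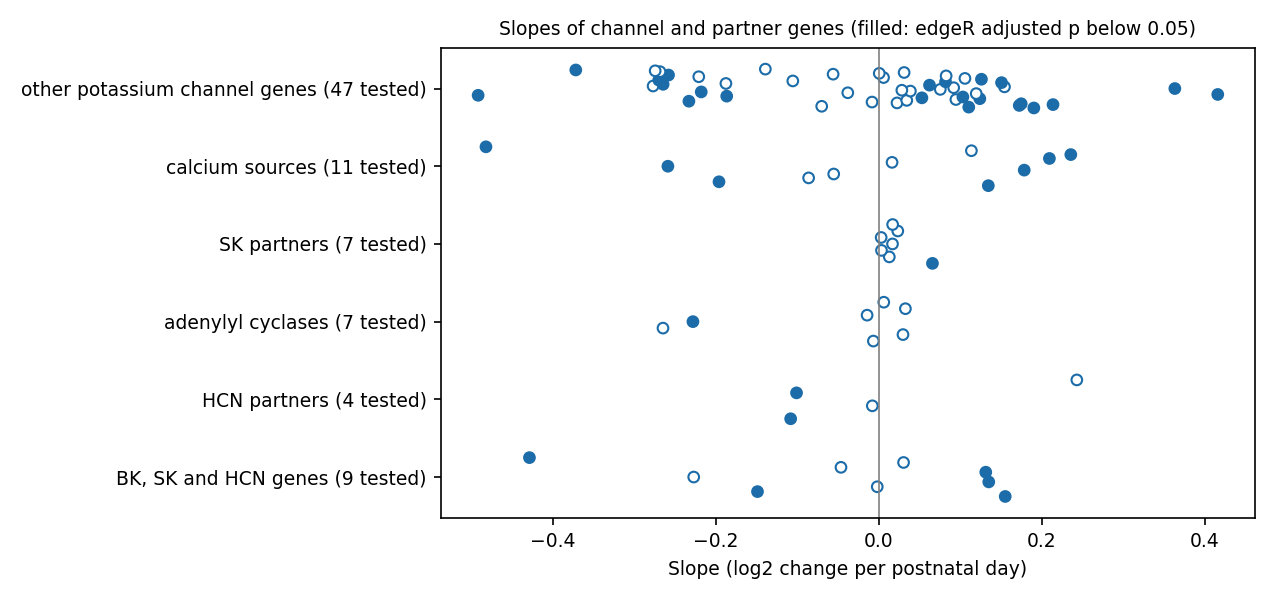
Slopes with postnatal day (log2 units per day) of the 9 channel genes and of the genes of 5 lists that could be tested, with 1 point per gene and filled points for an edgeR adjusted p below 0.05. Of the 47 other potassium channel genes 14 are filled on the right and 8 on the left, and Calm2 is the filled point among the SK partners.

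As the comparison nearest in kind, 83 other genes whose symbols start with Kcn are reported. Of the 47 that could be tested 14 rose, 8 fell and 25 did not pass, and 14 passed the time point test. Over all genes tested, 12% rose, 14.5% fell and 19.3% passed the time point test. The median slope of the 47 genes was 0.03, while that of the 9 BK, SK and HCN genes was 0.00 and that of all genes tested -0.01.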

How the data were processed

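Libraries of laser-captured PCs were made by the authors with the SMARTer Ultra Low kit from 15 samples. The submitters' processing notes name cutadapt 1.2.1, GSNAP and HTSeq 0.5.3p9. The authors kept uniquely mapping reads on GRCm38/mm10 and counted reads lying fully within a gene. The deposited values are raw whole-number counts per Ensembl gene, 1 library per sample, without normalization. The annotation release and strand setting are not given in the sources used here.

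Groups and replicate numbers came from the sample labels. The 5 tallies of reads not assigned to a gene were left out. The 9 genes and the lists of partner and marker genes were chosen with earlier results of these data known. All 9 genes are described, and of the lists those that passed a test or belong to the same families, except for 3 genes that are not reported here.

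The counts were fitted with edgeR 4.0.16 in R 4.3.3 (TMM, filterByExpr by time point with a count minimum of 10, quasi-likelihood F tests of the slope on day, of the time point and of neighbouring steps), with Benjamini-Hochberg adjustment over 14293 genes. CPM uses TMM library sizes and RPKM total counts on genes and GENCODE M21 exon lengths. Standard errors (SE) were derived as the absolute log2 change divided by the square root of the F statistic. Floors are 3 counts and cover counting error only. Alternatives were DESeq2 1.42.0, limma-voom (limma 3.58.1), other scalings, no filter, log2(day + 1), no P0, a replicate block and each sample left out. Scripts were tested on simulated data. Sequences came from RefSeq (GRCm38.p6). Means and figures used Python 3.11.15, numpy 2.4.6, pandas 2.3.3 and matplotlib 3.10.9.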

Additional observations from a re-analysis of the deposited data

How the results depend on the processing

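Of the 9 genes, the number that rose with day was 2 to 3 when single samples were left out, the number that fell 2 and the number past the time point test 2. In the step from P0 to P4 it was 1 to 2, with 2 without P0 replicate 3, and in the later steps 0. The number that fell was 1 with log2(day + 1) as the time scale, where Kcnn3 was lost (adjusted p = 0.0523), and 1 without the P0 time point, where Hcn3 was lost (0.132). The number past the time point test was 4 with limma-voom, which added Hcn3 (0.0360) and Kcnmb2 (0.0350), and Hcn3 passed with DESeq2 (0.0167). In the step from P14 to P21 it was 1 with limma-voom (Kcnma1, 0.0440) and 1 with DESeq2 (0.0449). With the TMM library size, Kcnma1 stood at 59.2 RPKM at P21 instead of 52.0. No result changed sign among those called. Kcnmb2 fell under the filter without P0 and gave no value there.

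The labels do not say that a replicate number marks anything shared between ages, and deviations of same-numbered samples correlated between -0.0315 and 0.0469 over 30 pairs, with 7 of 15 samples closest to their own number. With a replicate block, 3 of the 9 genes rose, 2 fell and 2 passed the time point test, and over all genes 1703 rose and 1964 fell. The spread between samples was wide (biological coefficient of variation 0.705), and Kcnmb2, Kcnn1, Kcnn3, Hcn2 and Hcn4 rest on at most 102 counts per sample, so that changes of these genes may have gone undetected. Without normalization factors the median log2 change of all genes was -0.19 from P8 to P14 and -0.13 from P14 to P21.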

Other observations

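Among the potassium channel genes outside the BK and SK families, several with high levels at P21 rose with day. Kcng4 went from 0.130 ± 0.226 CPM at P0 to 634 ± 69.3 at P21 (slope 0.42, SE 0.052, edgeR adjusted p = 8.37e-06). Kcna1 rose as well (slope 0.19), with the Kv beta subunit genes Kcnab1 (0.21) and Kcnab2 (0.17). On the falling side were Kcnf1 (-0.49) and the leak channel gene Kcnk2 (-0.27), which went from 29.8 ± 25.4 CPM at P0 to 0.426 ± 0.737 at P21. Kcnf1 stood at 21.5 ± 30.5 CPM at P0 and at 0 in every sample of P14 and P21. It thus passed the filter only through samples of P0 to P8, and could not have been tested had it been low then. It did not pass edgeR's time point test (adjusted p = 0.0909).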
